A study of Mus musculus with 42 samples.

Results

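The smooth muscle genes of peritubular myoid cells were followed through an RNA-seq count table of bead-sorted mouse spermatogonia. The set held 10 genes of the 27179 in the table, chosen by name from a list and found through their Entrez identifiers: Acta2, Actg2, Myh11, Myl9, Mylk, Tagln, Cnn1, Smtn, Lmod1 and Des. The list was drawn up with earlier results of these data known. All 10 had reads in every library, and all 10 passed the filter on low counts in every comparison. The question was how much of this somatic contractile signature each sorted fraction carried, and whether it differed between mice with and without the chromatin remodeler CHD8 in their germ cells.

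RNA was sequenced from C57BL/6J males at 10 days post-partum (dpp), from 2 sorted populations of 2 genotypes, with 3 libraries in each of the 4 groups. Control mice were Ddx4-Cre/Chd8+/F and mutant mice were Ddx4-Cre/Chd8F/-, so every animal carried the Cre transgene and a floxed Chd8 allele. Ddx4-Cre acts in germ cells, so control germ cells keep 1 wild-type allele, while somatic cells of a mutant testis keep the floxed allele intact beside 1 null allele. Interstitial cells were digested away with collagenase, the tubules were digested to single cells, a strainer and a plating step served to remove Sertoli and other somatic cells, c-Kit+ cells (differentiating spermatogonia) were pulled out first with beads, and Thy1+ cells (undifferentiated spermatogonia) were then pulled from what had flowed through. The methods give 3 pups per analysis and the labels do not say which library came from which animal, so p-values measure the spread between these libraries. The totals were 32266861 to 45396233 counts per library. Thy1 itself averaged 12.6 ± 1.40 CPM (counts per 1000000 counts of the library) in control Thy1+ cells and 0.685 ± 0.248 in control c-Kit+ cells (SD, n = 3), and Kit averaged 288 ± 111 and 666 ± 45.6 CPM in the same groups. Whole-gene Chd8 counts sum over all exons, of which only some are floxed, so these counts did not check the genotype. They were 269 ± 9.41 and 274 ± 20.7 CPM in control and mutant Thy1+ cells.

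Peritubular myoid cells are flattened, smooth muscle-like cells that wrap each seminiferous tubule, and their contractions move sperm and fluid along it. They are somatic and lie outside the basement membrane on which spermatogonia sit. As in other smooth muscle, actin filaments slide along smooth muscle myosin when myosin light chain kinase phosphorylates the regulatory light chain, and the transcription factor SRF with its partner myocardin switches on many of the genes through CArG boxes in their promoters. No member is specific to myoid cells: vascular smooth muscle and pericytes make most of the same proteins.

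Of the 10 genes, 7 had a promoter in the RefSeq sequences of GRCm38.p6 used here. Myh11, Tagln and Actg2 had none there. The 250 bases before the start site are shown for the gene with the widest use as a myoid marker (Acta2), for Myl9, for Des, which differed most between the sorted populations, and for Cnn1, which did not pass that test. They come from chr19:34255374-34255623 on the minus strand for Acta2, chr2:156775214-156775463 on the plus strand for Myl9, chr1:75360042-75360291 on the plus strand for Des and chr9:22099003-22099252 on the plus strand for Cnn1. The start sites are those of the RefSeq windows, which equal the gene start in the count table for Myl9 and Cnn1 but lie 37 bases upstream of it for Acta2 and 52 bases upstream for Des. Capitals mark CArG boxes, exact or with 1 G or C in the A/T core.
Acta2: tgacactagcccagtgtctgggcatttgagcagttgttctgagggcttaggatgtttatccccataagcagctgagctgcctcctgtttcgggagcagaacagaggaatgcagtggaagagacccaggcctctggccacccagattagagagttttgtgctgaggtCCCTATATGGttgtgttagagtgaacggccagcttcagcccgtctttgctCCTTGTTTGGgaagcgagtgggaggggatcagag
Myl9: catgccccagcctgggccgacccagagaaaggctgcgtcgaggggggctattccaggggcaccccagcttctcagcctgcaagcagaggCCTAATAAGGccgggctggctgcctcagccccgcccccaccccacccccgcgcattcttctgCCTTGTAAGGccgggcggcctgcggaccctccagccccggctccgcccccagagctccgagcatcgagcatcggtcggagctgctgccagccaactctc
Des: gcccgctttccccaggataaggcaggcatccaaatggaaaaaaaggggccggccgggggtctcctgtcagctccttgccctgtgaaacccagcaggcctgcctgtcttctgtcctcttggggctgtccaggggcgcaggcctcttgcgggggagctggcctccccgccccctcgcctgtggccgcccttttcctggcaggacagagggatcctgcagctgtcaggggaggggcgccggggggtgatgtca
Cnn1: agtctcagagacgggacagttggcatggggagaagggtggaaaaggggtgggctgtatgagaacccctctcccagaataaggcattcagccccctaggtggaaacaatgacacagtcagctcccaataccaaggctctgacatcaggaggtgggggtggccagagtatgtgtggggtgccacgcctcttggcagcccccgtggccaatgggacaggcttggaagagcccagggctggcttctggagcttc
Myl9 held an exact CArG box that began 161 bases before the start site and one with a core mismatch at 99 bases. Acta2 held no exact box and 2 with a core mismatch, which began 84 and 34 bases before the start site of its window. The other 5 windows, those of Mylk, Cnn1, Smtn, Lmod1 and Des, held neither form. On either strand (the box reads alike on both), an exact box stood in 1.47% of 32851 promoter windows of this length and either form in 8.59%. A match in these letters is a description of the window and says nothing of binding.

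Per exon length, the regulatory light chain and the main smooth muscle actin led the set in the control Thy1+ cells. Levels were compared between genes as CPM per kilobase of exon (RPKM). Myl9, the regulatory light chain, stood at 134 ± 26.7 RPKM (SD, n = 3) and Acta2, smooth muscle alpha-actin, at 66.5 ± 28.3. Des (desmin, the muscle intermediate filament) at 28.3 ± 4.54, Tagln (transgelin, which binds actin filaments) at 27.4 ± 13.1, Mylk (myosin light chain kinase) at 24.7 ± 3.93, Smtn (smoothelin, an actin-binding protein) at 22.3 ± 4.81 and Myh11 (smooth muscle myosin heavy chain) at 17.2 ± 7.25 RPKM followed, and the SD ranges of neighbours among these 5 overlapped. Lmod1 (leiomodin, which starts actin filaments) at 6.11 ± 1.35, Actg2 (smooth muscle gamma-actin) at 2.45 ± 1.08 and Cnn1 (calponin, which restrains the myosin motor) at 1.29 ± 0.585 RPKM were the lowest, with overlap between Actg2 and Cnn1 only. In control c-Kit+ cells Myl9 stayed first at 38.1 ± 8.10 RPKM, but the order below it changed. Acta2 at 10.6 ± 3.85 and Mylk at 9.73 ± 0.554 RPKM came next, within the spread of each other. Smtn at 7.11 ± 1.22 and Tagln at 6.79 ± 0.779 RPKM followed, and their SD ranges overlapped each other and that of Acta2. Myh11 at 2.93 ± 0.709 and Des at 2.58 ± 0.637 RPKM were lower and overlapped each other.

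**Figure D1:**
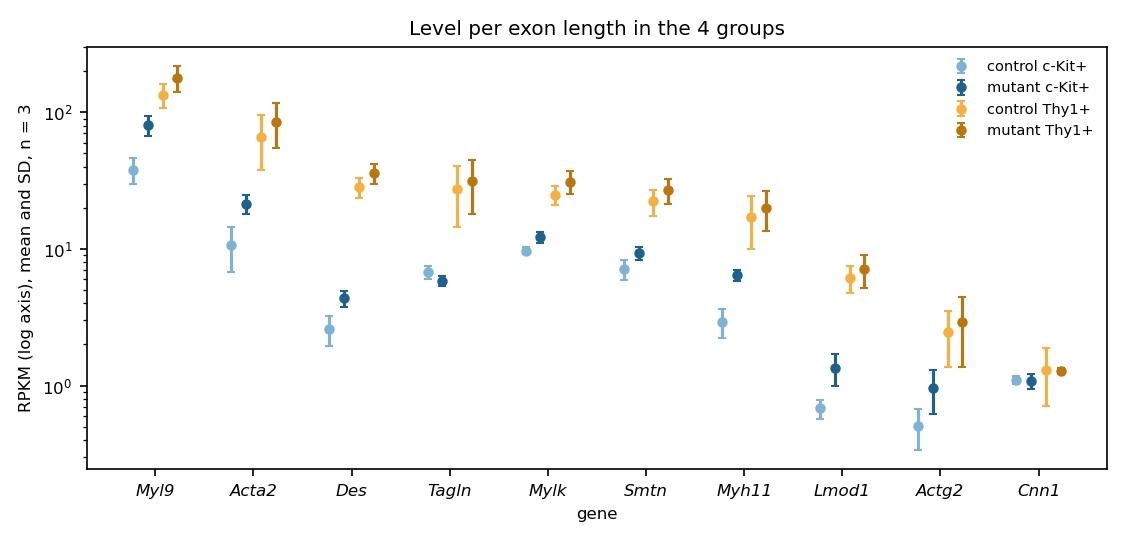
Level per exon length (RPKM, log axis) of the 10 genes in the 4 groups, as mean (point) and SD (bar) of 3 libraries, with genes ordered by their level in control Thy1+ cells. Myl9 is highest in every group, and Cnn1 lies near 1 RPKM in all 4.

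The Thy1+ cells carried far more of the smooth muscle transcripts than the c-Kit+ cells. In controls 9 of the 10 genes were higher in Thy1+ cells (edgeR quasi-likelihood test, Benjamini-Hochberg adjusted p below 0.05 and a log2 fold change above 0.5), where 20.7% of all 17350 genes tested were called higher. In mutants 9 of 10 were again higher, against 15.3% of 17346 genes, and the exception in both was Cnn1. The median log2 fold change of the set was 2.17 in controls and 1.66 in mutants, beside 0.03 and -0.03 over all genes tested. In bulk RNA, fewer cells of a type and less RNA per cell cannot be told apart. Both comparisons were made within a genotype and share no library.

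Acta2 was the more abundant of the smooth muscle actins. It lies on chr19:34241091-34255336 of mm10, minus strand (Entrez 11475), and measured 177, 89.3 and 89.1 CPM in the control Thy1+ libraries 1 to 3 against 25.7, 12.0 and 19.1 CPM in control c-Kit+. In mutants it measured 209, 101 and 147 CPM in Thy1+ cells against 40.1, 42.7 and 31.4 in c-Kit+ cells. Every Thy1+ library was above every c-Kit+ library, and replicate 1 was the highest Thy1+ library in each genotype. The log2 fold change was 2.67 ± 0.35 (SE) in controls (6.38-fold, adjusted p = 6.22e-04, edgeR) and 2.04 ± 0.24 in mutants (adjusted p = 4.46e-04, edgeR).
Actg2 (chr6:83512909-83536251, minus strand, Entrez 11468) was scarce, with 4.50, 3.47 and 1.69 CPM in control Thy1+ cells against 0.553, 0.915 and 0.523 in control c-Kit+ cells. These c-Kit+ values rest on 19, 32 and 18 counts. The groups did not overlap, and the log2 fold change was 2.30 ± 0.43 in controls and 1.64 ± 0.42 in mutants (adjusted p = 0.00436 and 0.0209, edgeR). The call in mutants is the less firm of these, as leaving out mutant c-Kit+ replicate 1 or 3 raised its adjusted p to 0.075 and 0.0806.
Actin genes resemble each other in sequence. Of the 50-base stretches of Acta2 exons 0.404% also occurred in another of the 6 actin genes examined, and none of Actg2 did. The skeletal and cardiac actins Acta1 and Actc1 averaged under 1 CPM in every group, while the cytoplasmic actin Actb averaged 1335 CPM in control Thy1+ cells. Reads of other actins that carry an error could still reach Acta2 or Actg2, and this was not tested.

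The genes of the myosin motor and its kinase were higher in Thy1+ cells as well. Myh11 (chr16:14194527-14291408, minus strand, Entrez 17880) measured 169, 91.2 and 81.5 CPM in control Thy1+ cells and 18.8, 15.04 and 24.4 in control c-Kit+ cells. Replicate 1 was again the highest Thy1+ library, and the groups were far apart. The log2 fold change was 2.58 ± 0.30 in controls and 1.68 ± 0.21 in mutants (adjusted p = 3.25e-04 and 5.89e-04, edgeR).
Myl9 (chr2:156775464-156781657, plus strand, Entrez 98932) measured 177, 121 and 139 CPM in control Thy1+ cells and 48.5, 31.5 and 43.8 in control c-Kit+ cells. Its log2 fold change was 1.85 ± 0.19 in controls and 1.19 ± 0.18 in mutants (adjusted p = 1.81e-04 and 0.00169, edgeR).
Mylk (chr16:34784950-35002434, plus strand, Entrez 107589) had the smallest difference among the 9 called genes in controls. It measured 217, 158 and 205 CPM in control Thy1+ cells and 79.2, 77.6 and 71.1 in control c-Kit+ cells, with a log2 fold change of 1.37 ± 0.13 in controls and 1.39 ± 0.15 in mutants (adjusted p = 1.00e-04 and 2.30e-04, edgeR). The gene also encodes a longer, non-muscle kinase that many cell types make, and whole-gene counts do not separate the forms. In addition, 7.13% of its exon bases are covered by genes on the opposite strand, and the counting used no strand.

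Among the actin-binding proteins, 3 of 4 were higher in Thy1+ cells. Tagln (chr9:45929628-45936058, minus strand, Entrez 21345) measured 67.4, 32.6 and 30.5 CPM in control Thy1+ cells and 12.1, 9.75 and 10.4 in control c-Kit+ cells. Its log2 fold change was 2.05 ± 0.30 in controls and 2.47 ± 0.28 in mutants (adjusted p = 1.30e-03 and 3.54e-04, edgeR). Tagln exons share 6.05% of their bases with Pcsk7 on the opposite strand.
Smtn (chr11:3517522-3539292, minus strand, Entrez 29856) measured 80.3, 57.4 and 88.9 CPM in control Thy1+ cells against 24.5, 19.7 and 28.0 in control c-Kit+ cells, with log2 fold changes of 1.68 ± 0.19 and 1.57 ± 0.16 in controls and mutants (adjusted p = 2.65e-04 and 2.19e-04, edgeR).
Lmod1 (chr1:135324813-135368065, plus strand, Entrez 93689) measured 25.5, 18.2 and 28.5 CPM in control Thy1+ cells and only 2.39, 3.17 and 2.50 in control c-Kit+ cells. Its log2 fold change was 3.19 ± 0.22 in controls and 2.43 ± 0.26 in mutants (adjusted p = 2.50e-05 and 2.40e-04, edgeR), among the widest gaps of the set.
Cnn1 (chr9:22099253-22109221, plus strand, Entrez 12797) stood apart. It measured 2.55, 3.74 and 1.42 CPM in control Thy1+ cells and 2.33, 2.23 and 2.03 in control c-Kit+ cells, with 51 to 138 counts per library over all 12. The Thy1+ values spanned the c-Kit+ values, and the log2 fold change was 0.25 in controls with a 95% interval from -0.54 to 1.04 (adjusted p = 0.602, edgeR). In mutants it was 0.29 with an interval from -0.22 to 0.80 (adjusted p = 0.356, edgeR).

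The intermediate filament gene Des (chr1:75360344-75367716, plus strand, Entrez 13346) had the widest gap of all 10. It measured 66.2, 49.5 and 66.6 CPM in control Thy1+ cells and 4.95, 7.12 and 4.59 in control c-Kit+ cells. The mutant values were 76.8, 65.1 and 90.3 CPM in Thy1+ cells and 9.06, 10.7 and 8.31 in c-Kit+ cells. No library of one population reached the range of the other, and the log2 fold change was 3.48 ± 0.21 in controls and 3.09 ± 0.15 in mutants (adjusted p = 1.69e-05 and 1.43e-05, edgeR).

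**Figure D2:**
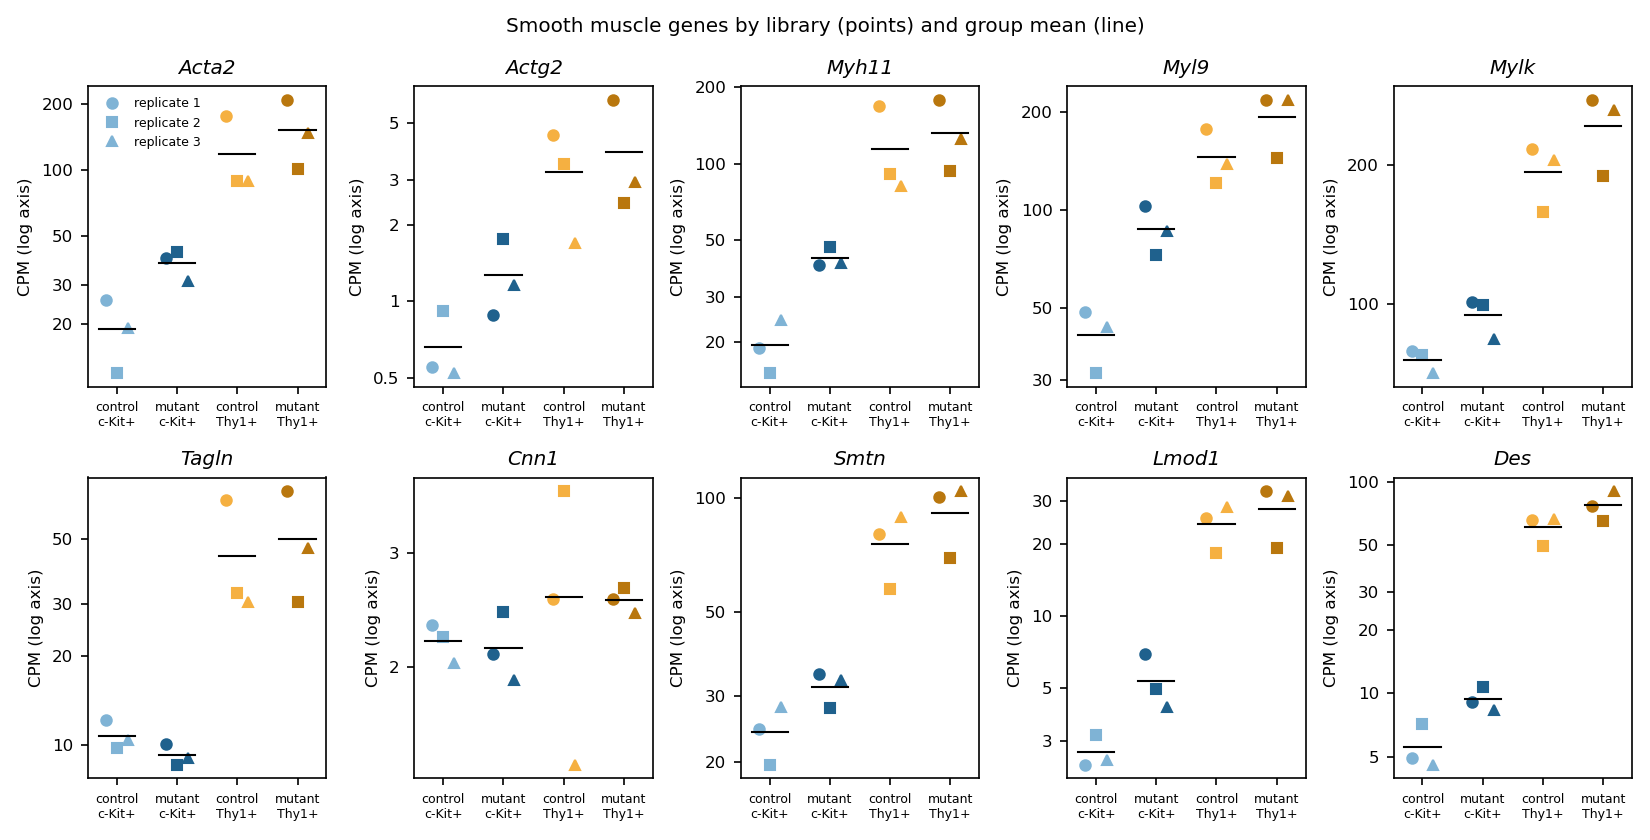
Level in CPM (log axis, with a range of its own in each panel) of the 10 smooth muscle genes in each of the 12 libraries, with point shape giving the replicate number and a line the group mean. Within each genotype, Thy1+ libraries lie above c-Kit+ libraries in every panel but that of Cnn1, and in c-Kit+ cells the mutant libraries lie above the controls for Acta2, Myh11, Myl9, Mylk, Lmod1 and Des. How many genes outside the set separate in these ways was not counted.

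Other contractile genes were less uniform than the set. Of 20 genes of the contractile apparatus and its regulation outside the set, 13 were higher in control Thy1+ than c-Kit+ cells, 1 was lower and 6 were not called, with a median log2 fold change of 0.74. The higher ones included Cald1, the actin-binding caldesmon, at 2.31, Pdlim3, a Z-line adapter, at 2.91 and Csrp1, a LIM protein of smooth muscle, at 1.90. The one lower was the calcium channel gene Cacna1c at -0.56 (adjusted p = 0.0087, edgeR). Widely used genes such as the phosphatase subunit Ppp1r12a, with a log2 fold change of -0.13, and the adhesion protein gene Vcl, with -0.04, were not called. Of the 4 regulators, Myocd, which encodes myocardin, was higher at 2.76 (adjusted p = 0.0022, edgeR), while Srf at 0.37 and its cofactors Mrtfa and Mrtfb at 0.10 and -0.03 were not called. Myocd was nonetheless rare, at 3.27, 1.65 and 2.00 CPM in control Thy1+ cells and 0.175, 0.458 and 0.407 in control c-Kit+ cells. Peritubular cells answer to hedgehog ligand from Sertoli cells, and the hedgehog response genes Gli1 at 2.53, Hhip at 2.44 and Ptch1 at 1.93 were higher in control Thy1+ cells.

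Markers of some other somatic cells were higher in Thy1+ cells along with the set, and others were not. The 8 vascular mural markers, which mark pericytes and vascular smooth muscle, were all higher in control Thy1+ cells, with a median log2 fold change of 3.25. Rgs5 was the extreme, at 76.6, 39.6 and 37.6 CPM in control Thy1+ cells and 0.844, 0.686 and 0.610 in control c-Kit+ cells, and Pdgfrb had a log2 fold change of 4.01. Summed over the list, mural markers came to 606 to 846 CPM in control Thy1+ cells and 201 to 216 in control c-Kit+ cells, and the set itself to 625 to 986 and 179 to 219 CPM. All 7 stromal markers were higher as well, with a median of 3.10 and sums of 11087 to 14448 CPM against 1801 to 2252. So were all 7 macrophage markers (median 2.13), and of 7 endothelial markers 2 were higher and none was lower (median 0.47). By contrast, 5 of 6 Leydig markers (median -1.46) and 4 of 4 mast cell markers (median -2.96) were lower in control Thy1+ cells, and 0 of 8 Sertoli markers were called by edgeR (median 0.10). Of all genes tested, 7.08% were called lower. With the replicate number as a block, 6 of 6 Leydig markers were called lower and 1 of 8 Sertoli markers higher (Sertoli median -0.21). Over all genes that fit called 21.8% higher and 8.38% lower. Myoid and vascular sources of the smooth muscle transcripts cannot be told apart in these libraries. Skeletal muscle markers summed to 10.7 to 14.5 CPM in control Thy1+ and 14.4 to 17.2 in control c-Kit+ cells. Of the 6 tested, 1 was higher in control Thy1+ cells (the troponin gene Tnnt3, at 2.34) and 2 were lower, and Acta1, Ckm, Myog and Myod1 each averaged under 1 CPM in every group.

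Mutant c-Kit+ cells held more RNA of part of the set than control c-Kit+ cells. Of the 10 genes, 5 were higher in mutant than control c-Kit+ cells and none was lower, where 14.8% of all 17134 genes tested were called higher. They were Myh11, Myl9, Acta2, Lmod1 and Des. The median log2 fold change of the set was 0.78, beside 0.01 over all genes. With the adjusted p alone and no fold minimum, Mylk was a sixth at a log2 fold change of 0.27 (adjusted p = 0.0315, edgeR), where 20.8% of all genes passed in that direction. With the replicate number as a block, Smtn also passed on the adjusted p alone, at 0.35 ± 0.09 (adjusted p = 0.0127, edgeR).

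Myh11 measured 18.8, 15.04 and 24.4 CPM in the control c-Kit+ libraries and 39.8, 47.2 and 40.7 in the mutant ones. The lowest mutant library stood above the highest control library, and the log2 fold change was 1.08 ± 0.16 (adjusted p = 6.97e-04, edgeR). Myl9 went from 48.5, 31.5 and 43.8 CPM to 103, 72.7 and 86.3, again with no overlap, for a log2 fold change of 1.02 ± 0.16 (adjusted p = 9.52e-04, edgeR). Acta2 went from 25.7, 12.0 and 19.1 CPM to 40.1, 42.7 and 31.4. The gap was widest at replicate 2, whose control library held the least Acta2, and the log2 fold change was 0.95 ± 0.23 (adjusted p = 0.00791, edgeR).
Lmod1 was at 2.39, 3.17 and 2.50 CPM in controls and 6.91, 4.96 and 4.17 in mutants, with a log2 fold change of 0.93 ± 0.23 (adjusted p = 0.00968, edgeR). Des was at 4.95, 7.12 and 4.59 CPM in controls and 9.06, 10.7 and 8.31 in mutants, with a log2 fold change of 0.69 ± 0.19 (adjusted p = 0.0158, edgeR). Neither gene's groups overlapped, yet Des was the least firm of the 5: leaving out control replicate 3 moved its adjusted p to 0.0594, and leaving out mutant replicate 2 to 0.0663.

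The other 5 genes did not pass. Actg2 was at 0.553, 0.915 and 0.523 CPM in control c-Kit+ cells and 0.885, 1.75 and 1.16 in mutants, with overlap between the groups and a log2 fold change of 0.88 ± 0.39 (adjusted p = 0.105, edgeR). Smtn had a log2 fold change of 0.34 with a 95% interval from 0.04 to 0.64 (adjusted p = 0.0696, edgeR). Cnn1 was at 2.33, 2.23 and 2.03 CPM in controls and 2.095, 2.43 and 1.91 in mutants, with a log2 fold change of -0.09 and an interval from -0.59 to 0.41 (adjusted p = 0.782, edgeR).
Tagln was the other gene with a negative value. It was at 12.1, 9.75 and 10.4 CPM in control c-Kit+ cells and 10.1, 8.59 and 9.03 in mutants, so that each mutant library was below the control library of the same number. The groups overlapped, and the log2 fold change was -0.28 with a 95% interval from -0.58 to 0.02 (adjusted p = 0.127, edgeR). This interval did not reach the lower bound of the interval of Acta2, which ran from 0.45 to 1.45.

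The ratio of Acta2 to Tagln counts within a library does not depend on scaling between libraries. It was 2.12, 1.23 and 1.84 in control c-Kit+ cells and 3.98, 4.97 and 3.48 in mutant c-Kit+ cells. All mutant values were above all control values, a mean of 4.14 ± 0.756 against 1.73 ± 0.454 (SD, n = 3). An exact two-sided permutation test gave p = 0.1 (adjusted p = 0.2 over the 2 populations), and 0.1 is the smallest p that 3 against 3 libraries allow. In Thy1+ cells the ratio was 2.62, 2.73 and 2.92 in controls and 2.89, 3.32 and 3.17 in mutants, with overlap (exact permutation p = 0.2, adjusted p = 0.2). The pair was chosen for this ratio after the values were seen.

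**Figure D3:**
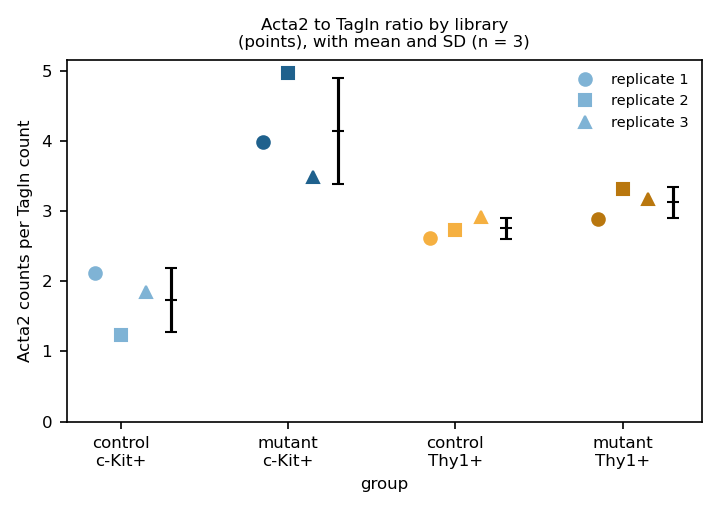
Acta2 counts per Tagln count in each of the 12 libraries (points, shaped by replicate number), with the mean and SD of 3 libraries beside them. The mutant c-Kit+ libraries, at 3.48 to 4.97, lie above all 9 others, and the control c-Kit+ libraries, at 1.23 to 2.12, lie below all 9 others.

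Beyond the set, 7 of 19 other contractile genes tested were higher in mutant c-Kit+ cells and none was lower, with a median log2 fold change of 0.22. They were the tropomyosin genes Tpm1 at 1.03 and Tpm2 at 1.17, Synm, a desmin partner, at 1.19, Cald1 at 0.86, Pdlim3 at 0.72, the light chain gene Myl6 at 0.53 and the phosphatase inhibitor Ppp1r14a at 0.53. Cald1 was at 47.0, 44.0 and 47.0 CPM in control and 98.0, 79.9 and 83.6 in mutant c-Kit+ cells, without overlap. Myocd was higher at a log2 fold change of 1.71 (adjusted p = 0.015, edgeR), from 0.175, 0.458 and 0.407 CPM to 1.30, 1.51 and 0.753, while Srf at 0.15 was not called. The hedgehog response genes Hhip at 0.97, Ptch1 at 0.91 and Gli1 at 0.73 were higher too.

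Somatic markers of several kinds were higher in the same mutant c-Kit+ libraries. All 8 Sertoli cell markers were higher, with a median log2 fold change of 1.14, and their sum was 536 to 1369 CPM in controls and 2164 to 2377 in mutants. Of the stromal markers 6 of 7 were higher (median 0.77), of the Leydig markers 4 of 6 (median 0.82), of the endothelial markers 6 of 7 (median 1.12), of the macrophage markers 1 of 7 (median 0.76) and of the mast cell markers 3 of 4 (median 1.00). With the replicate number as a block, 5 of 7 macrophage, 6 of 6 Leydig and 4 of 4 mast cell markers were called higher. That fit called 15.8% of all genes higher. Of the vascular mural markers 3 of 7 tested were higher (median 0.80), and 6 of the 7 had a positive log2 fold change. Their sum was 186 to 199 CPM in mutants and 201 to 216 in controls. Most of that sum was Mcam, which averaged 126 ± 2.77 CPM in mutants and 167 ± 9.48 in controls (SD, n = 3). No germ cell marker of 8 was higher and 2 were lower (median -0.39), where 7.41% of all genes were called lower. The set's sum was 300 to 347 CPM in mutants and 179 to 219 in controls, and the ranges did not overlap. The part of the other cell types in the smooth muscle difference was not tested.

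**Figure D4:**
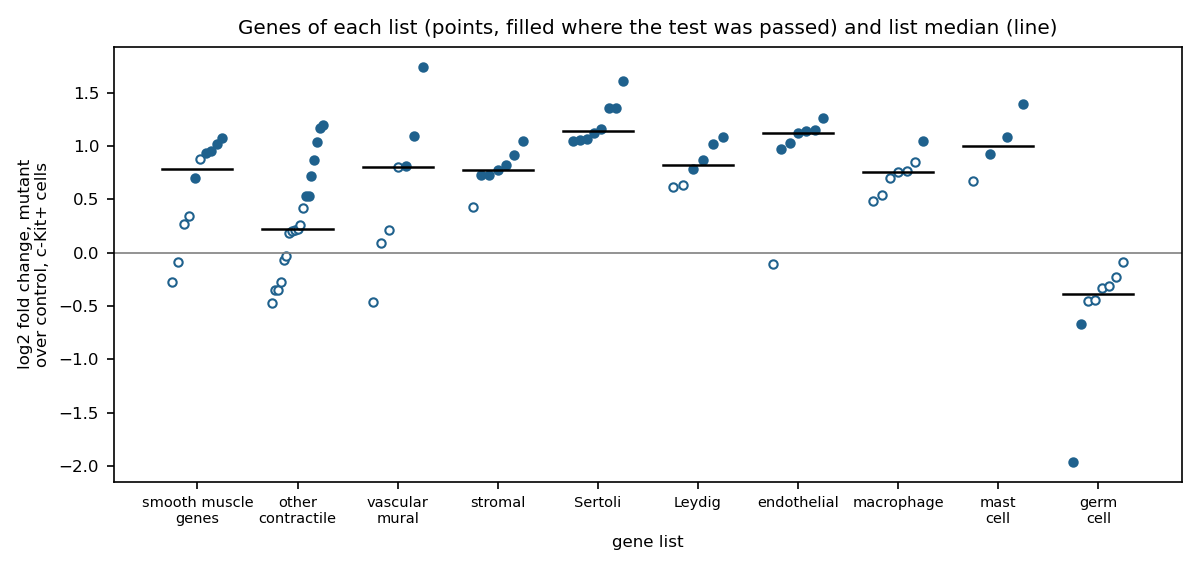
Log2 fold change of each gene of 10 lists in mutant over control c-Kit+ cells (points, filled where the adjusted p was below 0.05 and the absolute log2 fold change above 0.5), with a line at each list's median. The smooth muscle genes have a median of 0.78 and run from -0.28 to 1.08, while all 8 Sertoli markers lie above 1.0 and all 8 germ cell markers below 0.

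In Thy1+ cells no gene of the set passed the test between the genotypes. The count was 0 of 10 by the edgeR quasi-likelihood test, where 0% of all 17416 genes were called higher, and it was 0 by the exact test of edgeR and 0 by DESeq2. At an unadjusted p below 0.05 it was again 0, where 12.4% of all genes passed in either direction. With the replicate number as a block, 7 of the 10 had an unadjusted p below 0.05 (edgeR), as did 6965 of 17416 genes. The ranges of control and mutant libraries overlapped for all 10, and the share of all genes whose ranges overlapped was not counted. The log2 fold changes ran from -0.01 for Cnn1 to 0.42 for Myl9, with a median of 0.27 beside 0.02 over all genes. For Acta2, at 177, 89.3 and 89.1 CPM in controls and 209, 101 and 147 in mutants, the value was 0.37 with a 95% interval from -0.38 to 1.12 (adjusted p = 0.626, edgeR). For Des, at 66.2, 49.5 and 66.6 CPM and 76.8, 65.1 and 90.3 CPM, it was 0.35 with an interval from -0.01 to 0.72 (adjusted p = 0.410, edgeR). The value of 0.95 measured for Acta2 in c-Kit+ cells lay inside its Thy1+ interval from -0.38 to 1.12. A fit blocked by replicate number gave Acta2 an interval from 0.22 to 0.56 in Thy1+ cells. The same fit gave 0.54 to 1.44 in c-Kit+ cells, so the 2 blocked intervals overlapped only from 0.54 to 0.56. Such an overlap does not test their difference. Tested directly with a block within each population, the Acta2 difference had a 95% interval from 0.14 to 1.19 (adjusted p = 0.105, edgeR).
The myosin genes lay in the same range. Mutant Thy1+ cells held Myl9 at 217, 145 and 218 CPM against 177, 121 and 139 in controls, and Myh11 at 178, 93.8 and 125 CPM against 169, 91.2 and 81.5. Mylk was at 276, 189 and 263 CPM in mutants against 217, 158 and 205 in controls. Each of the 3 was above its control library at every replicate number, with log2 fold changes of 0.42, 0.22 and 0.34 (adjusted p = 0.417, 0.765 and 0.437, edgeR).
Among the actin-binding genes, mutant Thy1+ cells held Smtn at 101, 69.4 and 104 CPM and Lmod1 at 33.1, 19.1 and 31.8 CPM, both above their controls number by number. Cnn1 was at 2.55, 2.65 and 2.43 CPM and Actg2 at 6.19, 2.42 and 2.95 CPM, which did not sort from their controls in this way.

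The spread in Thy1+ cells followed the replicate number. Replicate 1 held the most Acta2, Actg2, Myh11 and Tagln of each genotype. Tagln was at 67.4, 32.6 and 30.5 CPM in control and 72.4, 30.5 and 46.3 in mutant Thy1+ cells. The same libraries held the most Sertoli marker RNA, with 1946 CPM in control and 2546 in mutant replicate 1 against 443 to 942 CPM in the other 4. In Des, Smtn and Lmod1, by contrast, replicates 1 and 3 were both above replicate 2 in each genotype. With the replicate number as a block, 6 of the 10 genes had an adjusted p below 0.05 in Thy1+ cells, all higher in mutants, where 15.6% of all genes passed that way. They were Myl9 at 0.41 ± 0.07 (adjusted p = 3.35e-04), Acta2 at 0.39 ± 0.08 (adjusted p = 0.00188), Des at 0.35 ± 0.07, Mylk at 0.33 ± 0.05, Smtn at 0.28 ± 0.06 and Myh11 at 0.25 ± 0.09 (adjusted p = 0.0391, all edgeR). All 6 lay below the fold minimum, so the count of called genes stayed at 0. In the same fit, with the fold minimum, 7 of 8 Sertoli markers were called higher (median 0.72) and 4 of 8 germ cell markers lower (median -0.41). Of the stromal markers 1 of 7 was called higher (median 0.29). Over all genes 3.2% were called higher and 4.92% lower in this way. The part of these markers in the result was not tested.

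The genotype difference itself was then compared between the populations in a fit of all 12 libraries. By the edgeR quasi-likelihood test no gene of the set had a genotype difference in c-Kit+ cells that departed from that in Thy1+ cells, and 0% of 18002 genes passed in the direction of a greater c-Kit+ difference. DESeq2 also called 0 of the 10. At an unadjusted p below 0.05 there were 3, Myh11 at a log2 difference of 0.92 (unadjusted p = 0.0389), Myl9 at 0.67 (unadjusted p = 0.0365) and Lmod1 at 0.78 (unadjusted p = 0.048), each with an adjusted p of 0.473 to 0.493 (edgeR), where 10% of all genes passed in either direction. Same-numbered libraries deviated together within each population, and with the replicate number as a block within each population 3 of the 10 passed, where 9.5% of all genes did in that direction. They were the same 3, Myl9 at 0.69 ± 0.11 (adjusted p = 0.00199), Myh11 at 0.91 ± 0.20 (adjusted p = 0.0109) and Lmod1 at 0.77 ± 0.21 (adjusted p = 0.0353, all edgeR), while Acta2 at 0.66 ± 0.24 (adjusted p = 0.105) and Des at 0.41 ± 0.12 (adjusted p = 0.0517, both edgeR) did not pass. That fit was chosen after seeing the data. A greater difference in c-Kit+ than in Thy1+ cells thus rests on the block for these 3 genes, and did not pass in either fit for the other 7.

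**Figure D5:**
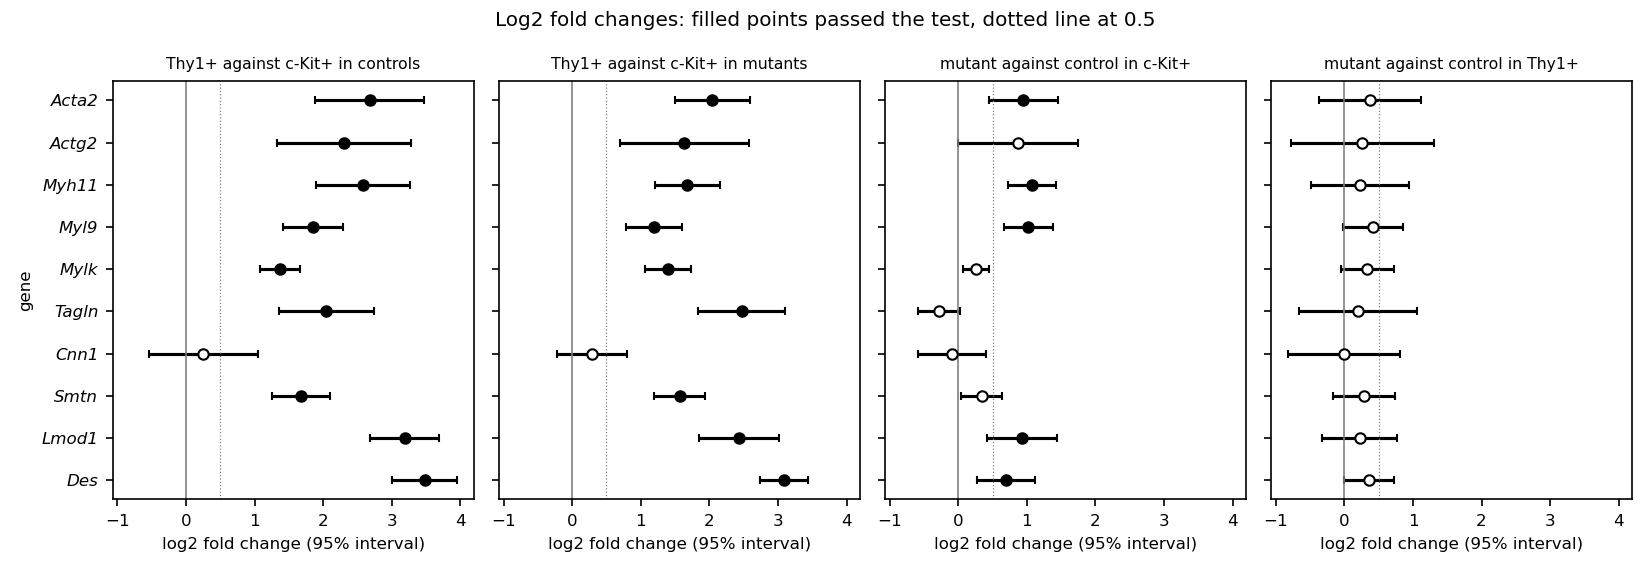
Log2 fold changes of the 10 genes in the 4 comparisons (points, filled where the gene passed the test), with 95% intervals from the edgeR quasi-likelihood fit, a solid line at 0 and a dotted line at the fold minimum of 0.5. Filled points number 9, 9, 5 and 0 from left to right, and Cnn1 is open in all 4 panels.

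Genes that tracked Acta2 most closely were sought over the 12 libraries by the root mean square (RMS) difference of log2 CPM, each gene centred on its own mean. Over 13676 genes whose log2 CPM averaged 1 or more, the closest outside the set were Tm4sf1, a membrane protein gene (0.23), Phlda1 (0.26), the Wnt receptor gene Ror2 (0.27), the G protein subunit gene Gng11 (0.29) and the myeloid adapter gene Tyrobp (0.29). Tm4sf1 averaged 11.2 ± 5.25 CPM in control Thy1+, 14.9 ± 4.49 in mutant Thy1+, 1.28 ± 0.474 in control c-Kit+ and 3.05 ± 0.460 in mutant c-Kit+ cells. Within the set Myh11 ranked 2 in likeness to Acta2 (0.25), while Myl9 ranked 319, Lmod1 336, Tagln 417, Smtn 533, Mylk 807, Des 925 and Cnn1 5081, and Actg2 was below the level minimum. The libraries differ in depth and cell makeup, and these differences act on all genes of a library, so the ranks describe these 12 libraries.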

How the data were processed

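RNA-seq of 12 libraries (3 per genotype and sorted population) was used, and 30 ChIP-seq samples were not analysed here. The authors used Trimmomatic 0.39 for trimming and HISAT2 2.1.0 for alignment of the read pairs to mm10, and deposited raw counts per Entrez gene (RefSeq exons) from featureCounts, whose file header gives version 2.0.3. The command in the header sets no strand and no counting of fragments, so a pair can add 2 counts, and between 65.6% and 69.5% of counts of 1 to 19 were even, which makes counts less precise than their size implies. Identifiers were matched to RefSeq symbols (25275 of 27179). No per-sample column was left unused.

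Counts were tested in R 4.3.3 with edgeR 4.0.16 (quasi-likelihood test, TMM, filterByExpr) over all genes, and genes were called at a Benjamini-Hochberg adjusted p below 0.05 and an absolute log2 fold change above 0.5 (adjusted p alone for the difference of genotype effects). Errors on fold changes are SE from that test. CPM use library totals adjusted by TMM. The alternatives were edgeR's exact test, DESeq2 1.42.0, other size factors and filters, all 12 libraries in one fit, no fold minimum, a replicate block and each library left out. The scripts were tested on simulated data. Same-numbered libraries deviated together (r of 0.27 to 0.49 in Thy1+, 0.10 to 0.12 in c-Kit+ and 0.13 to 0.30 between populations of controls, all 3 pairs each), so the number was taken to pair the libraries there, but not between populations of mutants (0.02 to 0.20) or over all 12 libraries. The values given are those of the fit without the block, as in the study's own test. A blocked value, named as such, stands beside a count given here where it changed calls in the set or a marker list. The members and all lists were chosen with earlier results of these data known. Named genes are the 10 members, genes of the lists where a count names them, Chd8, Thy1, Kit and the 5 genes most like Acta2. One listed gene is not reported here.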

Additional observations from a re-analysis of the deposited data

How the results depend on the processing

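Between populations in controls, 9 of the 10 genes were called under all 18 alternatives. In mutants the count ran from 7 to 9 over 18 alternatives, with 8 to 9 when 1 library was left out. In c-Kit+ cells the genotype count was 5 with both edgeR tests, DESeq2, every scaling and filter and the replicate block, 6 with no fold minimum, and 4 to 5 with 1 library left out. It fell to 3 when both libraries numbered 1 were left out (Acta2, Myh11 and Myl9 remained) and to 3 when both numbered 3 were (Myh11, Myl9 and Lmod1 remained). These last settings, which leave 2 libraries a group, were chosen after seeing the data, and they test fewer samples. In Thy1+ cells the count was 0 throughout, with 0 when 1 library was left out.

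With the replicate block over all 12 libraries the difference of the genotype effects called 1 gene, Myl9 (log2 difference 0.69, adjusted p = 0.019, edgeR), where 2.34% of all genes were called higher. The numbers were not taken to pair all 12 libraries, so this is given as a value of that fit. With the block within each population, where the numbers were taken to pair the libraries, it called 3, Myh11, Myl9 and Lmod1. That pairing was inferred from the counts and is not stated in the labels. The block changed no other call of the fold-limited test.

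Of 869 fold changes recomputed, 22 changed sign, none over 0.37 in size. For Cnn1 in Thy1+ cells the genotype value was 0.066 with the replicate block and 0.30 without both libraries numbered 2, and its population difference in controls was -0.10 without both numbered 2. With 1 library left out, the genotype values in Thy1+ cells ran from -0.26 to 0.57 for Actg2, from -0.050 to 0.62 for Myh11, from -0.17 to 0.65 for Tagln and from -0.30 to 0.37 for Cnn1, and the population difference of Cnn1 in controls ran from -0.16 to 0.50. The difference of genotype effects then ran from -0.16 to 0.10 for Mylk, from -0.48 to 0.27 for Cnn1 and from -0.042 to 0.24 for Smtn. The cause was not tested. Cnn1 and Actg2 had at most 228 counts in any library, and what depth contributed to their intervals was not tested.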
